A study of Homo sapiens with 9 samples.

Results

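Antisense transcripts named after a neighbouring gene, that is, the rows of the counts table whose symbol ends in -AS1, were examined in undifferentiated Caco-2 cells. The members were chosen by their raw counts, summed over the 9 libraries, at a minimum of 200. Of 60591 rows, 1257 had such a symbol, 337 of these were at 0 in every library, and 175 reached the minimum. The sums of the 175 members ran from 200 to 15217 with a median of 542. A sum over all conditions can be reached through a subset of them: 160 members held their even share of the 200 counts in the Control libraries, 164 in the Oxy libraries, 124 in the CoCl2 libraries and 109 in every condition. The rise of a member that reached the minimum only through the condition in which it was high is not independent of that choice. The gene in the name (the symbol without -AS1) was a row of the table for 173 members, and for 161 of these pairs both rows passed the filter on low counts and were tested.

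Caco-2 is an established human colon adenocarcinoma line that resembles enterocytes when grown past confluence, and only its undifferentiated state was used. Cells received fresh medium (Control), 300 μM CoCl2, or 5 μM of the oxyquinoline derivative OD 4896-3212 (Oxy, below also OD), for 24 h, with 0.5% DMSO in every condition. Each condition had 3 biological replicates of the same line, so the p-values measure the spread between cultures of this line. Both compounds stabilise hypoxia-inducible factors in normal air, CoCl2 as a metal ion with other targets as well and OD as an inhibitor of the prolyl hydroxylases, and the question addressed here is how the antisense transcripts and the genes they are named after moved under each.

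An antisense transcript is read from the strand opposite to a neighbouring gene. It can overlap the exons or introns of that gene, or start beside its promoter and run away from it, since many promoters are read in both directions. Most such transcripts are long noncoding RNAs, kept at low levels and degraded in the nucleus by the RNA exosome, and single members are known to act on their neighbour by blocking its transcription, by pairing with its mRNA or by recruiting chromatin regulators, while for most no role is known. The suffix records position at naming and says nothing of function.

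Promoter windows were read from the RefSeq table (build GRCh38.p14), which held 126 of the 175 members. Each window spans 250 bases before to 50 bases after the start and is written 5′ to 3′ on the strand of its gene. Capitals mark every ACGTG or GCGTG on either strand, the core letters bound by hypoxia-inducible factors, with overlapping matches counted separately. The first 3 windows are shown because a member and its gene start inside the same stretch and yet differed in their response, the next pair because both starts of a pair with opposite changes are covered, and the last pair because FAM13A-AS1 had the largest rise with OD. They lie at chr3:40309649-40309948 on the minus strand (EIF1B-AS1), chr7:157010607-157010906 on the plus strand (MNX1-AS1), chr4:4541881-4542180 on the plus strand (STX18-AS1), chr3:128488953-128489252 on the plus strand (GATA2-AS1), chr3:128493152-128493451 on the minus strand (GATA2), chr4:88709539-88709838 on the plus strand (FAM13A-AS1) and chr4:89057136-89057435 on the minus strand (FAM13A).
EIF1B-AS1: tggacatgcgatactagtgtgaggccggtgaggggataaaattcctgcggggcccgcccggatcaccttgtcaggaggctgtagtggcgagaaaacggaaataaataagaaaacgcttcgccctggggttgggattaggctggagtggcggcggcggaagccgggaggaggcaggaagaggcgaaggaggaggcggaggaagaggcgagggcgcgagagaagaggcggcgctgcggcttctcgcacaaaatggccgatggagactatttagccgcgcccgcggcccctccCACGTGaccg
MNX1-AS1: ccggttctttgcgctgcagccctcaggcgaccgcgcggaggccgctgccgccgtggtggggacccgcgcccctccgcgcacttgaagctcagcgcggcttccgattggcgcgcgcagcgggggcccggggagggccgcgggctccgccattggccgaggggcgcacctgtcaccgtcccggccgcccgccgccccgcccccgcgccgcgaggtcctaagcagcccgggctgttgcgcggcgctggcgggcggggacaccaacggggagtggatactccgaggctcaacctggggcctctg
STX18-AS1: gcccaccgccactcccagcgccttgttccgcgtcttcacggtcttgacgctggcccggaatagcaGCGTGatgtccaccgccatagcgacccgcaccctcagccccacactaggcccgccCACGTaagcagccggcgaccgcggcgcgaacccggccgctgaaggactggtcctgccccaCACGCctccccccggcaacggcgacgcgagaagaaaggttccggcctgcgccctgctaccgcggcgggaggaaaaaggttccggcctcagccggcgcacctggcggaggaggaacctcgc
GATA2-AS1: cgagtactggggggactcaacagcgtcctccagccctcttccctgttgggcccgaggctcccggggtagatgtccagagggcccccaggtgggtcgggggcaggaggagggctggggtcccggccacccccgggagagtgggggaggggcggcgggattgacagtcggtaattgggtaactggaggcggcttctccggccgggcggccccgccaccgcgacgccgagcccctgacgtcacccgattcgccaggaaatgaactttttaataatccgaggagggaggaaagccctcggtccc
GATA2: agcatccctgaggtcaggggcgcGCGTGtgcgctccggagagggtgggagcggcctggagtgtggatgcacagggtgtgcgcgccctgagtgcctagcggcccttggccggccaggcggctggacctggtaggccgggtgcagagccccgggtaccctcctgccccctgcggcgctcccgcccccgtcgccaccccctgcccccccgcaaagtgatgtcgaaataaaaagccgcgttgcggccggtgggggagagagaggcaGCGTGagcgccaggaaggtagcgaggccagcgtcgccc
FAM13A-AS1: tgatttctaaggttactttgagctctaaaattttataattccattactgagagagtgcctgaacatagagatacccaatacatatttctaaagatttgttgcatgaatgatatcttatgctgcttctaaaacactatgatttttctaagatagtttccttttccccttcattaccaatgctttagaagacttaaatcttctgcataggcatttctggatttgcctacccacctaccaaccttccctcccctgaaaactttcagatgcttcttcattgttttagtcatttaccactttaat
FAM13A: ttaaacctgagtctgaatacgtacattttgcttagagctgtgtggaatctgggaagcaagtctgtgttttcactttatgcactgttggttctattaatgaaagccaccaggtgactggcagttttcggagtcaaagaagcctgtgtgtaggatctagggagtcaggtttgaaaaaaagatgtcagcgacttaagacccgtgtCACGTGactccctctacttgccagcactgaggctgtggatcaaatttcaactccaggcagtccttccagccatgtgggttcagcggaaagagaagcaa

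In these windows, the RefSeq start of the neighbouring gene lay at base 242 for EIF1B, 9 bases from the start of EIF1B-AS1, at base 57 for MNX1 and at base 168 for STX18. The core letters were matched 2 times in the EIF1B-AS1 window, in overlap, 3 times in that of STX18-AS1 and 2 times each in those of GATA2 and FAM13A. The windows of MNX1-AS1, GATA2-AS1 and FAM13A-AS1 held no match. RefSeq starts can differ from the GENCODE positions used below. The start of FAM13A-AS1 is chr4:88709789 in RefSeq and chr4:88709298 in GENCODE, and that of FAM13A is chr4:89057185 and chr4:89111398. The windows at the GENCODE starts were not read. Among all 35116 RefSeq promoter windows, 48.4% held a match, against 65.1% of the 126 members (82 windows) and 64.7% of the windows of the genes in their names. These sets are unlike. The first takes every window of every gene, whether expressed here or not, and the others the first window of each symbol. Windows of a member and its gene can also share bases, and the difference was not tested. Of the members with a window, 3 of 8 called higher with CoCl2 held a match and 29 of 44 called lower, and the shares with OD were 1 of 5 and 4 of 8. A match is a description of letters and not a binding site, and no match says only that these letters are not in this window.

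Library totals ran from 15998136 to 24209427 counts. Scaling factors (TMM, trimmed mean of M values) were 1.108 to 1.116 in Control, 1.138 to 1.150 in Oxy and 0.770 to 0.795 in CoCl2, so the CoCl2 libraries had a different composition, and with library size alone the median of all tested rows with CoCl2 moved from -0.05 to -0.55 (log2). With it, the share of calls that were higher with CoCl2 moved from 46.0% to 23.9% over all rows and from 20.2% to 13.7% over the members, and for CoCl2 against OD from 42.4% to 18.3% and from 25.7% to 10.2%. All fold changes below are relative to TMM. Of the epithelial markers, EPCAM, CDH1, KRT8 and KRT18 had at least 12522 counts in every library, while KRT20 and LGALS4 were low (at most 132 and 33 counts). Of the 10 epithelial markers, 2 were called lower with CoCl2, where 23.4% of all rows were. These were VIL1 (-2.45 ± 0.04, from 10633 to 12428 counts in Control to 1397 to 2277) and KRT20 (-1.44 ± 0.20). LGALS4 was called higher (1.66 ± 0.67), where 19.9% of all rows were. It had 9, 5 and 5 counts in Control and 6, 33 and 12 in CoCl2, so the libraries overlapped and its highest value came from a single library. None of the 10 was called with OD, where 9.09% of all rows were called higher and 4.16% lower. The part of these marker changes in the results below was not tested. The leukocyte genes PTPRC and CD3E had at most 3 and 6 counts. Summed over 10 marker genes of other cell types the level was 58.6 to 67.6 CPM (counts relative to the scaled library size) in Control, 77.4 to 78.1 in CoCl2 and 63.5 to 68.2 in Oxy, carried mainly by LYZ. In bulk RNA, less RNA per cell and fewer cells of a type cannot be told apart.

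The members were scarce transcripts. They took 0.133 to 0.138% of all counts in the Control libraries, 0.124 to 0.127% in Oxy and 0.0799 to 0.0817% in CoCl2. With TMM scaling, which takes the different composition into account, their summed level was 1198 to 1234 CPM in Control, 1091 to 1107 in Oxy and 1013 to 1060 in CoCl2, a smaller difference than in the raw shares. Per kilobase of annotated exon, their median level was 0.766 CPM per kb in Control, against 4.49 for the genes in their names, and 38 of 171 members stood above their gene on this scale. The highest level per kilobase was that of HECW2-AS1, with 17.1 ± 0.906 CPM per kb in Control (SD, n = 3) against 0.0723 ± 0.00734 for HECW2, a ubiquitin ligase gene. FGD5-AS1 had the largest sum and 14.1 ± 0.476 CPM per kb in Control, against 0.00682 ± 0.00692 for FGD5, so that the antisense name is here carried by the more abundant transcript of the pair.

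The 5 members with the largest sums were FGD5-AS1, PAX8-AS1, THAP9-AS1, OIP5-AS1 and EPB41L4A-AS1, and none passed both thresholds in either treatment. FGD5-AS1 had 85.2 ± 2.88 CPM in Control, 92.9 ± 1.21 in CoCl2 and 93.0 ± 2.34 in Oxy. PAX8-AS1, which overlaps the thyroid and kidney transcription factor gene PAX8, had 2358, 2720 and 2283 counts in Control, 1033, 854 and 1350 in CoCl2, and 1551, 1626 and 1424 in Oxy. Its treated libraries lay below every Control library in CPM, with log2 fold changes of -0.95 ± 0.05 (SE; CoCl2) and -0.83 ± 0.05 (Oxy), just short of the fold threshold, which CoCl2 passed without the filter on low counts (-1.01) and with library size alone (-1.45). EPB41L4A-AS1 stood higher in both treatments, by 0.91 ± 0.07 and 0.61 ± 0.06.

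With CoCl2, a smaller share of the members rose and a larger share fell than among all rows. A row was called when the adjusted p of edgeR's quasi-likelihood test (Benjamini-Hochberg over 15944 rows) was under 0.05 and the log2 fold change was above 1 in size. With CoCl2 against Control, 17 of 175 members (9.71%) were called higher, where 19.9% of all tested rows were, and 67 (38.3%) were called lower, where 23.4% of all rows were. The median log2 fold change was -0.56 over the members and -0.05 over all rows, and 121 members lay below 0. In each called member the libraries of the 2 conditions did not overlap, which follows largely from the thresholds of a call and is no added support. The genes in their names were nearer to the background, with 30 of 161 (18.6%) higher, 35 (21.7%) lower and a median of -0.02.

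**Figure D1:**
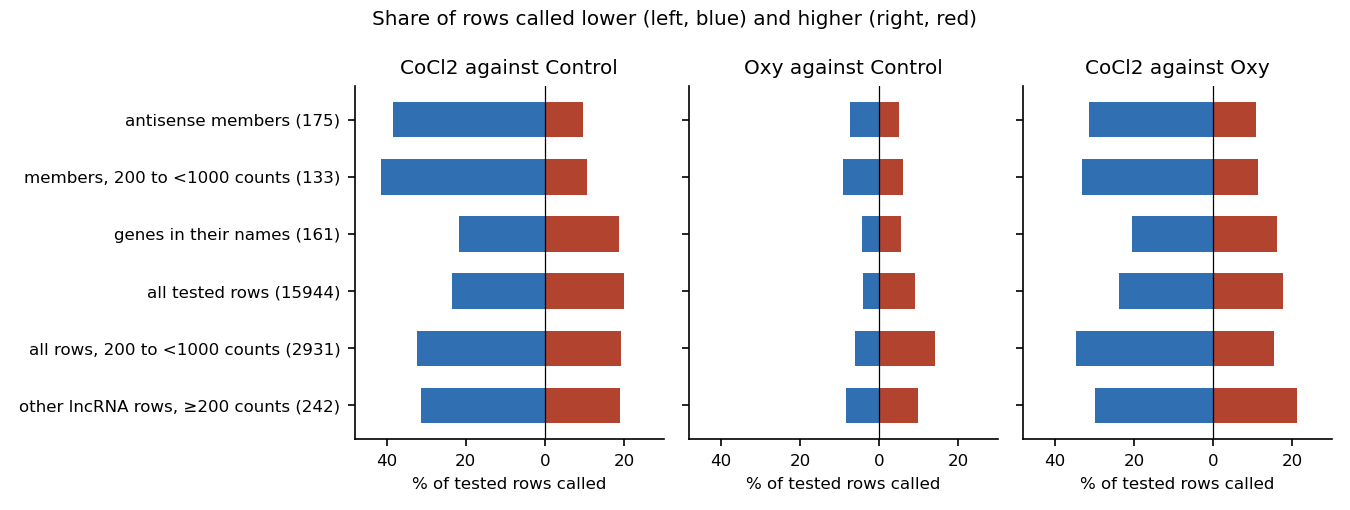
Percent of tested rows called lower (blue, to the left of 0) and higher (red, to the right of 0) in the 3 comparisons, for the antisense members, the members of 200 to under 1000 counts, the genes in their names, all tested rows, all rows of 200 to under 1000 counts and other long noncoding RNA rows, with the number tested in brackets. With CoCl2 against Control the bar of members called lower reaches 38.3%, against 23.4% for all rows and 32.4% for rows of like counts.

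Rows of low counts also fell more often with CoCl2, with no test of the difference. Among all tested rows with sums of 200 to under 1000, 19.1% were called higher with CoCl2 and 32.4% lower, with a median of -0.35; the 133 members in that range had 10.5% and 41.4% and a median of -0.68. At 1000 counts or more, the shares were 17.7% and 19.4% of all rows (median 0.01) and 7.14% and 28.6% of the 42 members (median -0.27). Other long noncoding RNA rows of at least 200 counts, 242 in number, had 19.0% higher and 31.4% lower (median -0.29). Protein-coding rows of 200 to under 1000 counts had 15.3% higher and 36.4% lower (median -0.54). In both count ranges the members had a larger share called lower and a smaller share called higher than all rows of that range. No test was made of these shares.

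The largest rises with CoCl2 were those of SLC7A11-AS1, EIF1B-AS1, IGFL2-AS1 and CARD8-AS1. Positions of members are given on GRCh38 from GENCODE release 44. SLC7A11-AS1 (chr4:138057464-138178177, plus strand), which overlaps SLC7A11, the gene of the cystine and glutamate exchanger, had 4, 6 and 8 counts in Control and 138, 80 and 128 in CoCl2, with 17, 29 and 21 in Oxy. Every CoCl2 library was far above every Control library, and the log2 fold change was 4.48 ± 0.25 (adjusted p = 1.41e-25). EIF1B-AS1 (chr3:40061110-40309698, minus strand), head to head with a gene of translation start, had 4, 2 and 7 counts in Control, 65, 45 and 68 in CoCl2 and 9, 6 and 8 in Oxy. It rose by 3.98 ± 0.31 (adjusted p = 1.13e-18), and its Oxy libraries overlapped those of Control. IGFL2-AS1 (chr19:46189029-46203160, minus strand), named after a growth factor-like gene, had 25, 19 and 18 counts in Control, 217, 150 and 247 in CoCl2 and 30, 43 and 31 in Oxy, a rise of 3.54 ± 0.16 with CoCl2 (adjusted p = 4.00e-30).

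CARD8-AS1 (chr19:48255675-48258199, plus strand) rose from 0.878 ± 0.178 to 8.46 ± 0.121 CPM (SD, n = 3), by 3.26 ± 0.18, while CARD8, an inflammasome sensor, had a log2 fold change of 0.32 ± 0.09. PITRM1-AS1, named after a mitochondrial peptidase gene, had 16, 26 and 13 counts in Control, 139, 84 and 87 in CoCl2 and 25, 17 and 28 in Oxy. Its CoCl2 libraries were the highest and its Oxy and Control libraries overlapped, with a rise of 2.74 ± 0.24 with CoCl2. The smallest rise called with CoCl2 was 1.17 (PLCG1-AS1).

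The largest falls with CoCl2 were those of ELFN1-AS1, RAMP2-AS1, VPS9D1-AS1, MNX1-AS1 and ATP6V0E2-AS1. ELFN1-AS1 (chr7:1738630-1742291, minus strand), inside an intron of a synaptic membrane protein gene, had 69, 61 and 80 counts in Control, 6, 0 and 4 in CoCl2 and 35, 47 and 23 in Oxy. It fell in CoCl2 by 4.11 on the log2 scale (SE 0.34, adjusted p = 1.07e-16), with the Oxy libraries between the other 2 groups. RAMP2-AS1 (chr17:42753914-42761257, minus strand), overlapping exons of a gene for an accessory protein of the calcitonin-like receptor, had 137, 167 and 131 counts in Control, 8, 7 and 9 in CoCl2 and 91, 69 and 76 in Oxy. VPS9D1-AS1 (chr16:89711856-89718165, plus strand), overlapping exons of a gene with a VPS9 domain, had 140, 129 and 159 counts in Control, 6, 11 and 8 in CoCl2 and 46, 33 and 23 in Oxy. The groups of these transcripts did not overlap, and the log2 fold changes with CoCl2 were -3.92 ± 0.21 and -3.84 ± 0.23.

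MNX1-AS1 (chr7:157010805-157016426, plus strand), read away from the homeobox gene MNX1 within the stretch printed above, had 110, 101 and 105 counts in Control, 5, 5 and 9 in CoCl2 and 71, 73 and 71 in Oxy. Its log2 fold change with CoCl2 was -3.79 ± 0.24 (adjusted p = 1.59e-22), whereas that of MNX1 was -0.39 ± 0.09. ATP6V0E2-AS1, overlapping the gene of a subunit of the proton pump of acidic organelles, had 34, 28 and 58 counts in Control, 4, 3 and 4 in CoCl2 and 57, 55 and 40 in Oxy, a fall of 3.17 on the log2 scale with CoCl2 (SE 0.38). The remaining 62 members called lower ran from -3.16 (SPATA3-AS1) to -1.02 (NR2F2-AS1).

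**Figure D2:**
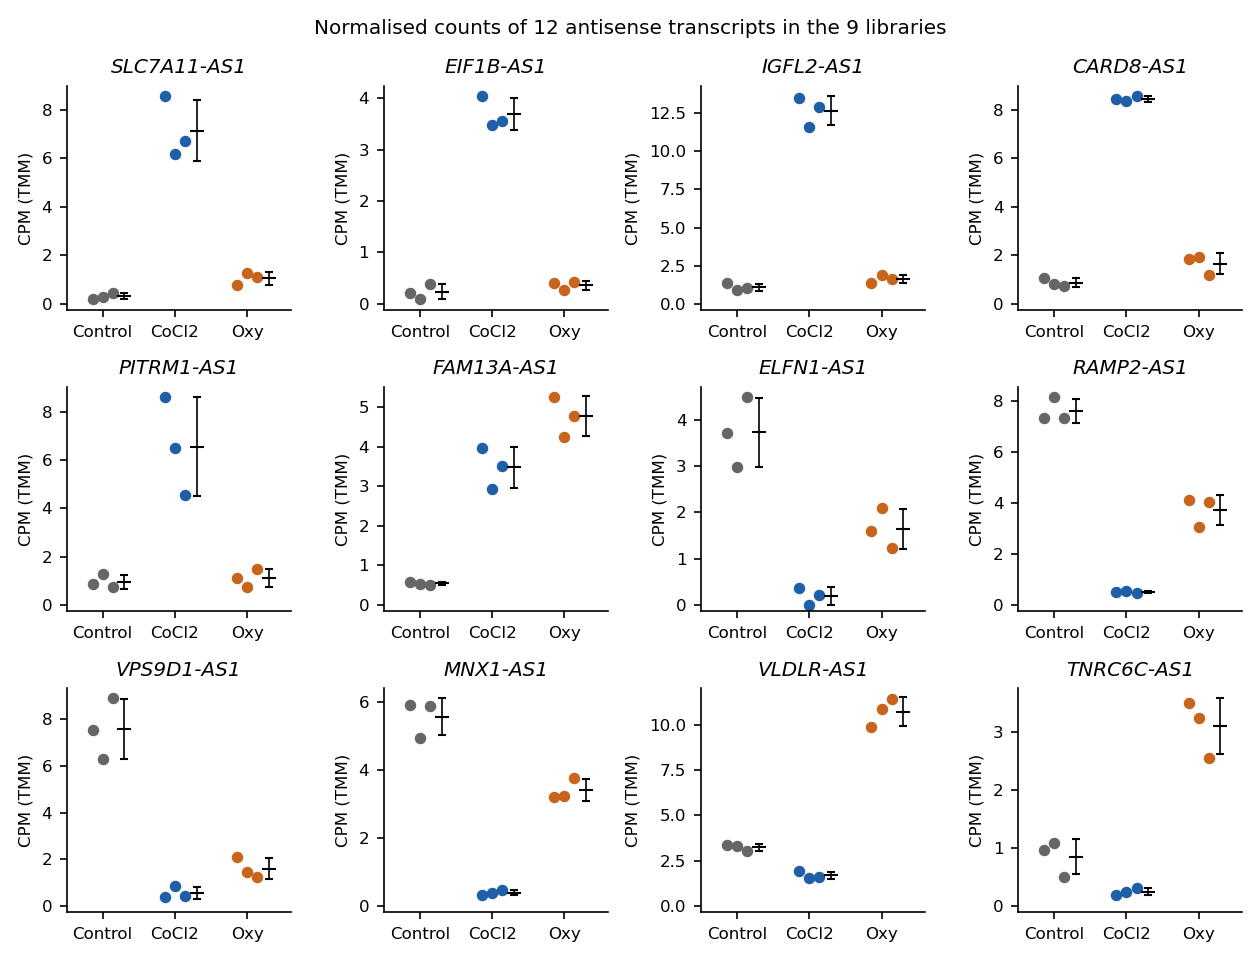
Normalised counts (CPM with TMM scaling, linear axes from 0) of 12 antisense transcripts in the 9 libraries, with a point for each library and a bar for the mean ± SD of 3 beside each group. The first 5 panels have their highest values in CoCl2, FAM13A-AS1, VLDLR-AS1 and TNRC6C-AS1 have theirs in Oxy, and ELFN1-AS1, RAMP2-AS1, VPS9D1-AS1 and MNX1-AS1 have theirs in Control.

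Against Control, OD gave fewer calls than CoCl2 among the members and among all rows: 9 members (5.14%) were called higher, where 9.09% of all rows were, and 13 (7.43%) lower, where 4.16% of all rows were. The median was -0.15, against -0.01 over all rows and 0.06 over all rows of 200 to under 1000 counts, and the genes in their names had 9 higher and 7 lower with a median of -0.04. At 1000 counts or more, 1 member rose and 1 fell (CYMP-AS1), of 42.

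FAM13A-AS1 (chr4:88709298-88730103, plus strand), overlapping exons of a gene with a RhoGAP domain, had the largest rise with OD. It had 11, 11 and 9 counts in Control, 64, 38 and 67 in CoCl2 and 116, 96 and 90 in Oxy. Both treatments lay above Control without overlap, with log2 fold changes of 3.11 ± 0.22 in Oxy (adjusted p = 8.01e-20) and 2.67 ± 0.24 in CoCl2. TNRC6C-AS1, named after a partner of the Argonaute proteins in microRNA silencing, had 18, 22 and 9 counts in Control, 77, 73 and 48 in Oxy and 3, 3 and 6 in CoCl2. Its groups were apart in opposite directions, 1.85 ± 0.23 with OD and -1.76 ± 0.43 with CoCl2.

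VLDLR-AS1 (chr9:2421597-2622457, minus strand), which starts beside the gene of the very low density lipoprotein receptor, had 63, 67 and 54 counts in Control, 217, 245 and 215 in Oxy and 31, 20 and 30 in CoCl2. It rose with OD by 1.72 ± 0.12 (adjusted p = 9.37e-20), while with CoCl2 its value was -0.94 ± 0.19, short of the fold threshold. SLC7A11-AS1 rose by 1.72 ± 0.36 with OD, and DLGAP1-AS1, in an intron of a postsynaptic scaffold gene, by 1.44 ± 0.18, from 1.49 ± 0.179 to 4.05 ± 0.548 CPM, with 1.41 ± 0.147 CPM in CoCl2.

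The largest falls with OD were those of VPS9D1-AS1, PRKG1-AS1, NINJ2-AS1, SOCS2-AS1 and PLCE1-AS1. VPS9D1-AS1, whose counts are given above, fell by 2.23 on the log2 scale (SE 0.17, adjusted p = 2.74e-18). PRKG1-AS1, antisense to the gene of a cyclic GMP-dependent kinase, had 54, 70 and 42 counts in Control, 20, 15 and 12 in Oxy and 12, 18 and 21 in CoCl2, with both treatments below Control. NINJ2-AS1, named after an adhesion gene, had 117, 97 and 90 counts in Control, 50, 33 and 20 in Oxy and 38, 49 and 65 in CoCl2. It fell with OD by 1.72 on the log2 scale (SE 0.18), and its value with CoCl2 was -0.76 ± 0.17. The 4 other members called higher and the 8 others called lower with OD had changes no larger than 1.37 and 1.46 in size.

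Set directly against OD, CoCl2 gave 19 members called higher (10.9%), where 17.5% of all rows were, and 55 called lower (31.4%), where 23.8% of all rows were, with a median of -0.49 against -0.05 over all rows. Among all rows of 200 to under 1000 counts, 34.7% were called lower in this comparison. The largest differences towards CoCl2 were those of EIF1B-AS1 (3.33 ± 0.27), IGFL2-AS1 (2.95 ± 0.14) and SLC7A11-AS1 (2.76 ± 0.19). Towards OD they were those of TNRC6C-AS1 (-3.61 ± 0.32), ATP6V0E2-AS1 (-3.35 ± 0.36) and ZBED3-AS1 (-3.11 ± 0.29). ZBED3-AS1, overlapping a zinc finger gene, had 30 counts in each Control library, 5, 4 and 7 in CoCl2 and 66, 71 and 48 in Oxy.

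The position of each member relative to its gene was taken from the same annotation, in which 173 members could be placed. An overlap of exons on opposite strands was found for 125, an overlap within introns for 20, starts within 1 kb with no overlap (head to head) for 24, another arrangement for 2 (FOXD2-AS1 and IGFL2-AS1), and the remaining 4 of the 175 could not be set beside their gene. With CoCl2, 13 of 125 members with exonic overlap were called higher (10.4%) and 44 lower (35.2%). With intronic overlap these were 1 of 20 (5.0%) and 9 (45.0%), and in the head-to-head arrangement 2 of 24 (8.33%) and 10 (41.7%). The shares were 19.9% and 23.4% over all rows, and 19.1% and 32.4% over rows of 200 to under 1000 counts. The medians of the 3 classes were -0.47, -0.63 and -0.50. With OD, the counts in these classes were 7 and 10, 1 and 3, and 0 and 0, where 9.09% of all rows were called higher and 4.16% lower. At such shares few calls fall in a class of 24. Of the 39 members with exonic overlap and starts within 1 kb, 0 were called higher and 2 lower with OD. No class was tested against another.

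**Figure D3:**
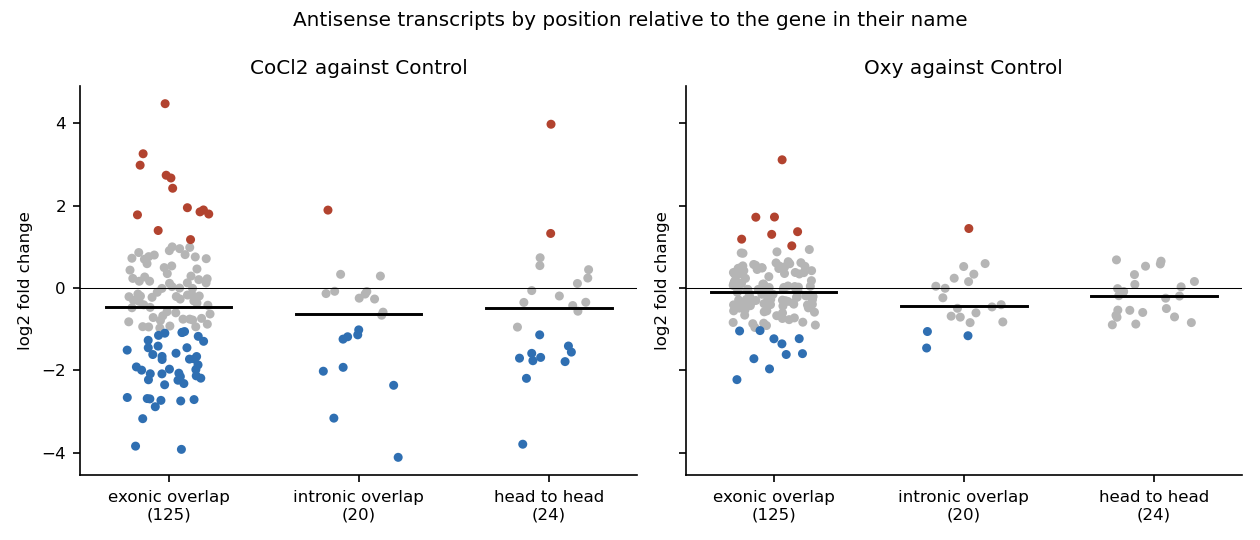
Fitted log2 fold changes of the members against Control in CoCl2 (left) and Oxy (right) by position relative to the gene in the name, with a point for each member (red called higher, blue called lower, grey not called) and a line at the median of each class. With CoCl2 the medians of the 3 classes lie between -0.63 and -0.47, and with OD no head-to-head member is coloured.

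The libraries were made with a strand-specific kit, but the strand setting of the counting and its handling of overlaps are not given in the sources used here, so reads from a member and from exons on the other strand may not be separable. A median of 6.60% of the exonic bases of a member were shared with another gene, 32 members shared none, and 7 shared 50% or more. In the table, 6 of 25 protein-coding genes (24.0%) with at least 90% of their exonic bases under genes of the other strand only had 10 counts or more, against 17 of 97 (17.5%) under genes of the same strand only and 7194 of 10330 (69.6%) with no covered base. Of the 32 members sharing no base, 1 was called higher and 18 lower with CoCl2, with a median of -1.14. Over all rows 19.9% were called higher and 23.4% lower, and over rows of 200 to under 1000 counts 19.1% and 32.4%. The difference was not tested. A protein-coding gene of the same strand ended within 10 kb upstream of 23 members, among them FAM13A-AS1 (HERC3, 757 bases upstream). Of these, 5 (21.7%) were called higher and 5 (21.7%) lower with CoCl2, near the 19.9% and 23.4% of all rows. Of the 150 without such a gene, 12 (8.0%) were called higher and 61 (40.7%) lower. Whether reading past the end of that gene contributed was not tested.

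Members and their genes were then compared as pairs in the same fit. With CoCl2, the fitted changes had the same sign in 103 of 161 pairs (64.0%), both were called the same way in 33 (5 higher, 28 lower) and both were called opposite ways in 5. Across the pairs, which share libraries, Pearson's r was 0.477 and Spearman's rho 0.480, given as a description. In 28 pairs the member was called lower with its gene not called, in 11 the member was called higher with its gene not called, and in 20 the gene was called higher with its member not called. The median of member minus gene was -0.40. With OD, the sign was shared in 98 pairs (60.9%), both were called the same way in 7 and opposite ways in none, and the median difference was -0.06.

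**Figure D4:**
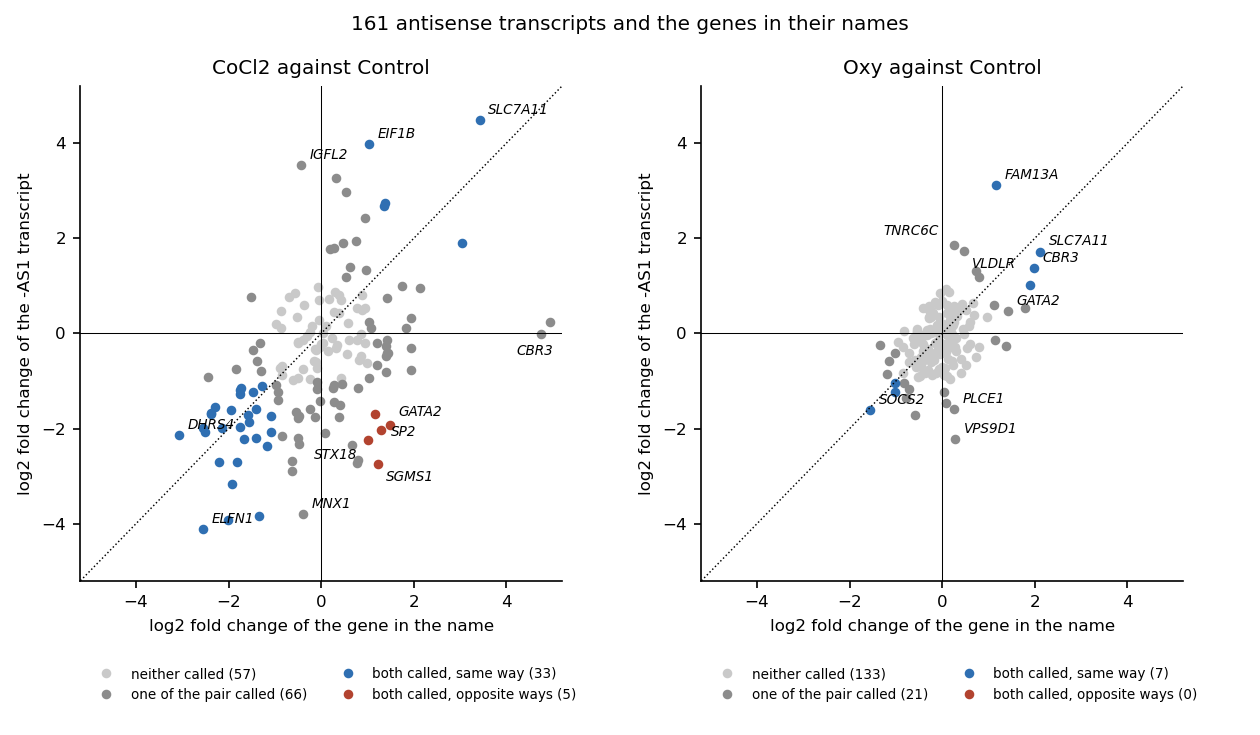
Fitted log2 fold change of each antisense transcript (vertical) against that of the gene in its name (horizontal) for 161 pairs, with CoCl2 (left) and Oxy (right) against Control, coloured by the calls of both, with a dotted line of equal change; names are those of the gene. With CoCl2, 33 pairs are called the same way and 5 opposite ways, below and to the right of 0,, and with OD 7 and 0.

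In the 5 pairs called opposite ways with CoCl2, the member was lower and the gene higher. SGMS1, which makes sphingomyelin, had 688, 820 and 722 counts in Control and 1515, 1143 and 1736 in CoCl2, while SGMS1-AS1 had 34, 41 and 38 and then 5, 4 and 5. Neither overlapped between the conditions, and the changes were 1.22 ± 0.05 and -2.74 ± 0.33. GATA2, a zinc finger transcription factor, had 208, 213 and 178 counts in Control, 502, 387 and 524 in CoCl2 and 615, 637 and 524 in Oxy. GATA2-AS1 (chr3:128489212-128502970, plus strand) had 106, 129 and 123 counts in Control, 20, 23 and 37 in CoCl2 and 172, 215 and 167 in Oxy.

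The gene GATA2 thus stood higher in both treatments, by 1.48 ± 0.08 and 1.41 ± 0.08, whereas its antisense transcript fell with CoCl2 (-1.92 ± 0.17) and stood at 0.47 ± 0.11 with OD, short of the fold threshold. SP2, of the Sp family of transcription factors, rose by 1.29 ± 0.06 and SP2-AS1 changed by -2.02 ± 0.16. STX18, a syntaxin of the endoplasmic reticulum, had 592, 628 and 610 counts in Control and 1074, 782 and 1260 in CoCl2, with 127, 175 and 125 and then 26, 23 and 27 for STX18-AS1. Its rise of 1.00 ± 0.06 sat on the fold threshold, and STX18-AS1 changed by -2.24 ± 0.17.

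The fifth pair was EXOC3 (1.15 ± 0.06), of the exocyst, and EXOC3-AS1 (-1.69 ± 0.25), a head-to-head pair. With library size alone none of these pairs kept both calls: the values of SGMS1, GATA2, SP2, STX18 and EXOC3 became 0.71, 0.98, 0.78, 0.50 and 0.65, with no change of sign. The 1 pair called opposite ways under that scaling was another, ELF3 (1.43, from 1.93) and ELF3-AS1 (-1.28, from -0.78), and was named after its values were seen. STX18 fell below a change of 1 in most other settings as well, to 0.94 at the lowest apart from that one.

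The log2 ratio of member to gene was compared library by library with an exact two-sided permutation test, whose smallest p for 3 against 3 is 0.1. With this number of libraries no ratio can reach 0.05, so the test separates no pair, and the ratios are given as values. Of the 161 pairs, 115 were at the smallest exact p with CoCl2 and 78 with OD (lowest Benjamini-Hochberg values 0.14 and 0.206). The ratio of SGMS1-AS1 to SGMS1 was -4.23 ± 0.04 in Control (SD, n = 3), -7.83 ± 0.11 in CoCl2 and -5.41 ± 0.24 in Oxy, and that of GATA2-AS1 to GATA2 was -0.73 ± 0.22, -4.09 ± 0.40 and -1.67 ± 0.14. For VLDLR-AS1 and VLDLR it was -3.50 ± 0.04, -5.42 ± 0.16 and -2.27 ± 0.13, so the ratio moved down with CoCl2 and up with OD while VLDLR itself was at 1.02 ± 0.06 and 0.47 ± 0.06. For each of these the libraries of each treatment were apart from those of Control, at the smallest exact p.

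**Figure D5:**
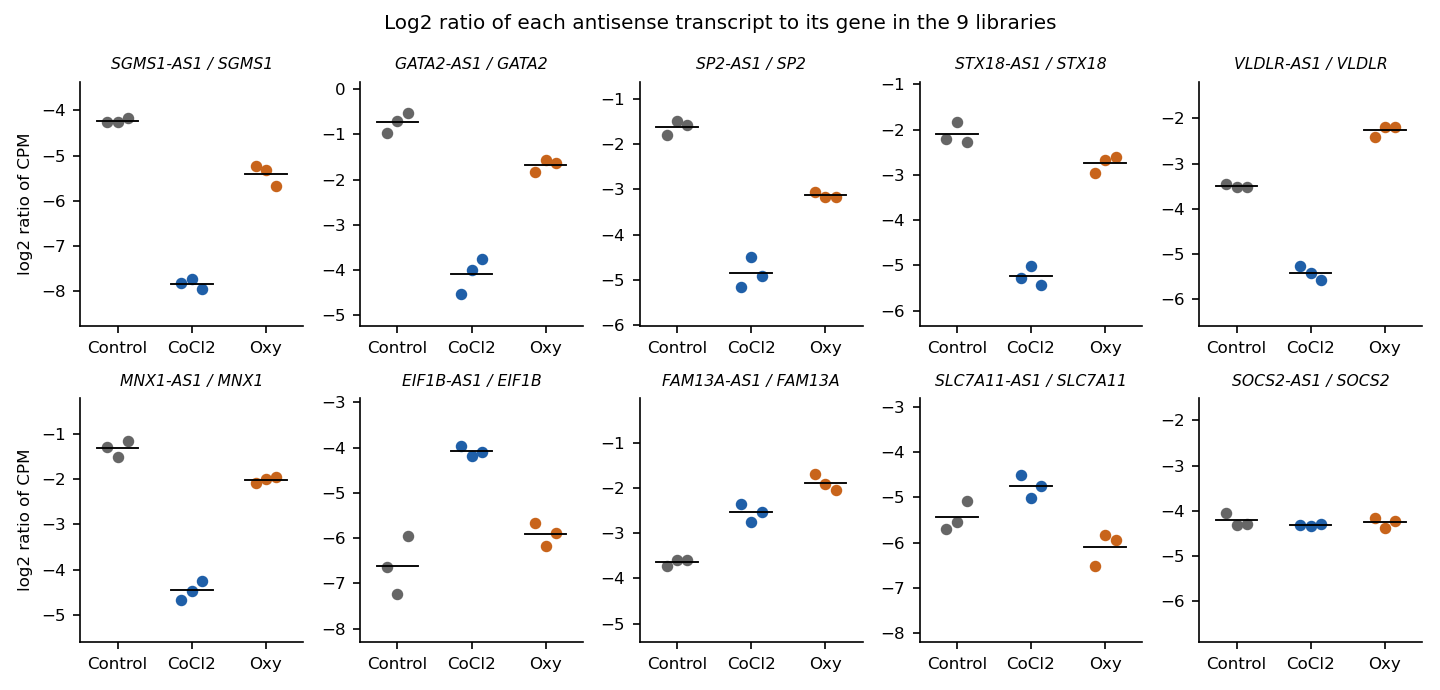
Log2 ratio of CPM (prior count of 2) of 10 antisense transcripts to the gene in their name in the 9 libraries, with a point for each library and a line at the mean of 3; every panel spans the same range. The 4 pairs called opposite ways and MNX1-AS1 to MNX1 drop by more than 3 with CoCl2, and SOCS2-AS1 to SOCS2 stays between -4.31 and -4.21 on average in the 3 conditions.

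Pairs called the same way with CoCl2 were led by SLC7A11-AS1. SLC7A11 had 309, 381 and 336 counts in Control, 3170, 2613 and 3514 in CoCl2 and 1761, 1797 and 1413 in Oxy, which is 3.43 ± 0.06 and 2.12 ± 0.06 above Control. Its antisense transcript rose by more with CoCl2 and by less with OD, with differences of 1.05 ± 0.25 and -0.40 ± 0.37. Among the 4 other pairs that rose together, EIF1B (1.03 ± 0.06) rose far less than EIF1B-AS1 though both start within the printed stretch, and the ratio went from -6.61 ± 0.65 in Control to -4.08 ± 0.11 in CoCl2. The rise of EIF1B was 0.97 without the filter on low counts and 0.53 with library size alone.

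Of the 28 pairs that fell together, ELFN1-AS1 with ELFN1 (-2.56 ± 0.36), ITGA9-AS1 (-2.69 ± 0.28) with the integrin gene ITGA9 (-2.20 ± 0.08) and DHRS4-AS1 (-2.13 ± 0.20) with the reductase gene DHRS4 (-3.07 ± 0.30) had the largest smaller change. DHRS4 has near-identical neighbours, so its counts are uncertain. ITGA9-AS1 had 53, 64 and 46 counts in Control, 8, 7 and 6 in CoCl2 and 69, 76 and 49 in Oxy, with the Oxy libraries overlapping those of Control.

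With OD, the 7 pairs called the same way were SLC7A11, FAM13A, CBR3 and CCDC183 with their members (higher) and SOCS2, CYMP and SBF2 with theirs (lower). FAM13A had 170, 158 and 129 counts in Control, 333, 264 and 396 in CoCl2 and 383, 370 and 381 in Oxy, which is 1.16 ± 0.09 with OD against 3.11 for FAM13A-AS1. SOCS2, a feedback inhibitor of cytokine and growth hormone signalling, changed by -1.55 ± 0.05 with OD and SOCS2-AS1 by -1.62 ± 0.13, so the ratio of the pair was -4.21 ± 0.15 in Control and -4.25 ± 0.11 in Oxy. With CoCl2 they changed by -0.97 ± 0.05 and -1.08 ± 0.13.

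CBR3, a carbonyl reductase, had 3, 1 and 0 counts in Control, 26, 19 and 55 in CoCl2 and 7, 9 and 3 in Oxy, with Oxy and Control libraries overlapping in CPM. Its call with OD (1.99 ± 0.73, adjusted p = 0.0139) was lost in DESeq2 on the 6 libraries and when Control replicate 2, Control replicate 3 or Oxy replicate 2 was left out. CBR3-AS1 had 23, 20 and 13 counts in Control, 60, 64 and 38 in Oxy and 14, 14 and 19 in CoCl2. It rose with OD (1.37 ± 0.23), and with CoCl2, where CBR3 was called higher, it stood at -0.01 ± 0.30. Without Control replicate 1, 4 pairs in place of 7 were called the same way with OD.

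By the roles of their genes, 18 members were named after transcription factors on a list of such genes. With CoCl2 none of the 18 was called higher and 10 (55.6%) were called lower, with a median of -1.04, where 9.71% and 38.3% of all members were. Of the 18 factors, 5 (27.8%) were called higher and 3 (16.7%) lower, with a median of 0.26, where 19.9% and 23.4% of all rows were. MNX1-AS1 and GATA2-AS1, described above, were among the 10. ZBED5-AS1 was called lower in both treatments, at -1.58 ± 0.27 and -1.36 ± 0.24, with ZBED5 at -1.42 ± 0.08 and -0.79 ± 0.07. It was the only member of this list called with OD, where 2 of the 18 factors were called higher.

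Of the list of hypoxia-responsive genes used here, a single gene had its antisense transcript among the members, ATP6V0E2. Other genes in the names of members may respond to hypoxia without being on this list. ATP6V0E2 was called lower with CoCl2 (-1.93 ± 0.11) and not called with OD (0.22 ± 0.08), so it was not called higher in either treatment. Its antisense transcript ATP6V0E2-AS1 changed by -3.17 ± 0.38 and 0.18 ± 0.21. Other classes of noncoding rows were counted beside the members. Of 32 rows of at least 200 counts whose symbol ends in -DT (divergent transcripts), 4 (12.5%) were called higher and 16 (50%) lower with CoCl2 and 0 and 3 (9.38%) with OD. Of 103 LINC rows (intergenic), 19 (18.4%) and 38 (36.9%) were called with CoCl2 and 14 (13.6%) and 9 (8.74%) with OD. The shares over all rows were 19.9% and 23.4% with CoCl2 and 9.09% and 4.16% with OD, and over rows of 200 to under 1000 counts 19.1% and 32.4%, and 14.1% and 6.14%. Of the members, 13 carry a -DT symbol in the current RefSeq naming.

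Genes that degrade or sense such RNAs were counted from lists. Of 25 tested genes of the nuclear RNA exosome and its cofactors, 4 (16%) were called higher and 3 (12%) lower with CoCl2, against 19.9% and 23.4% of all rows, and 0 and 1 (4%) with OD, against 9.09% and 4.16%. By the adjusted p alone, 3 were higher and 19 lower with OD, where 5156 and 5310 of 15944 rows were. Their median with OD was -0.45, against -0.01 over all rows. For CoCl2 against OD, 10 (40%) were called higher and 1 (4%) lower, against 17.5% and 23.8% of all rows. The exosome core genes EXOSC2 and EXOSC5 fell with CoCl2 (-2.11 ± 0.07 and -1.74 ± 0.11), while ZCCHC8, of a complex that hands nuclear transcripts to the exosome, rose (1.44 ± 0.06, though 0.93 with library size alone). Of 20 tested genes that bind, edit or sense double-stranded RNA, 3 (15.0%) were called higher and 4 (20.0%) lower with CoCl2, and 2 (10.0%) and 0 with OD, near the shares of all rows. MAVS, the adaptor of the cytoplasmic RNA sensors, changed by -2.21 ± 0.06 with CoCl2 and 0.31 ± 0.05 with OD, and OAS3, an RNA-activated synthetase, by -2.10 ± 0.08 and 0.87 ± 0.06. ADARB1, an RNA-editing enzyme, changed by -1.71 ± 0.09 and 0.29 ± 0.07. The 3 called higher with CoCl2 were the sensors DDX58 (1.69 ± 0.08) and OAS1 (1.21 ± 0.10) and the Dicer partner TARBP2 (1.02 ± 0.06). Their part in the levels of the antisense transcripts was not tested.

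At the edge of the selection, PLCE1-AS1 (200 counts) and AFAP1-AS1 (202, as for ST20-AS1) lay just inside the minimum, and RNF213-AS1 (191) and SEMA3F-AS1 (188) just outside. PLCE1-AS1 had 46, 56 and 32 counts in Control, 5, 6 and 6 in CoCl2 and 15, 15 and 19 in Oxy, AFAP1-AS1 had 10, 18 and 8, 46, 27 and 41, and 23, 14 and 15. RNF213-AS1 had 17, 17 and 14 counts in Control, 30, 24 and 34 in CoCl2 and 21, 21 and 13 in Oxy, and SEMA3F-AS1 had 12, 10 and 21, 34, 24 and 46, and 10, 12 and 19. A further 153 -AS1 rows below the minimum passed the filter on low counts, with 33 (21.6%) called higher and 49 (32.0%) lower with CoCl2. The shares were 19.9% and 23.4% over all rows and 9.71% and 38.3% over the members. The smaller share of rises among the members was thus not seen in the -AS1 rows below the minimum.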

How the data were processed

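Libraries were prepared from poly(A) RNA with a strand-specific kit and sequenced as single reads. Per the submitters' processing notes and methods, reads were checked with FastQC 0.11.9, trimmed with cutadapt 2.10 and aligned with STAR 2.7.5b to GRCh38.p13. The authors deposited raw counts per gene, and the counting tool, its strand setting and its handling of overlapping genes are not given in the sources used here. The authors' counts were analysed as deposited, with all 9 libraries in a single fit: rows passing filterByExpr (15944 of 60591) were scaled by TMM and tested with edgeR 4.0.16 (robust quasi-likelihood test, R 4.3.3, limma 3.58.1), with Benjamini-Hochberg adjustment over all tested rows. Calls needed both an adjusted p below 0.05 and a change of more than 1 on the log2 scale. The code was tested on simulated data. Errors of fold changes are SE, and the SE of a difference within a pair treats both estimates as independent. Log2 ratios within pairs used CPM with a prior count of 2 per library.

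Members and gene lists were chosen with earlier results of these data known. Members were named by rule: the 5 largest sums, the 5 largest rises and falls called against Control in each treatment, the 3 largest differences each way between treatments, up to 4 pairs with the largest opposite and shared changes, members or genes of largest change on each list (up to 4 or 3), and those nearest the minimum of 200. Some members that the rule named are not reported here, and a further rise with CoCl2 (PITRM1-AS1) was added. EXOC3-AS1, ELF3-AS1, HECW2-AS1 and the markers VIL1, KRT20 and LGALS4 were singled out after their values were seen. Positions and exon lengths came from GENCODE 44, a later release than that of the alignment, and 15 members were matched through RefSeq synonyms. Alternatives were DESeq2 1.42.0, library size alone, RLE factors, other count filters, a replicate block, the 6 libraries of a comparison, omission of each replicate, the adjusted p alone, and subsets of the members. Total counts of 15998136 to 24209427 per library set the precision, and members at a few counts have wide errors.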

Additional observations from a re-analysis of the deposited data

How the results depend on the processing

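Single values were followed for the members and genes named by the rule and for the genes in those members' names. Among these, no called value changed direction under any alternative fit. Of their 3618 alternative values, 3544 stayed on their side of the thresholds, 46 lost a call and 28 gained one. Values called in neither fit count as having stayed. Members and genes named outside the rule are not in this count. With library size alone and CoCl2, the members' median was -1.07 (from -0.56), 10 of their genes were called higher (from 30) and 57 lower (from 35), and 1 pair, not among the 5 of the TMM fit, was called opposite ways. With OD it gave a median of -0.11 (from -0.15) and 4 genes lower (from 7), and for CoCl2 against OD 10 members higher (from 19) and 88 lower (from 55), 11 genes higher (from 26) and 51 lower (from 33) and a median of -1.03 (from -0.49). These shifts follow from the scaling, which moved all rows. With at least 10 counts in every library, a filter that removes genes that fell, the medians were -0.35 (CoCl2), -0.10 (OD) and -0.20 (CoCl2 against OD), with 2 opposite and 17 shared pairs (from 33) with CoCl2 and 1 shared pair (from 7) with OD. Without a filter the medians were -0.63 (CoCl2) and -0.56 (CoCl2 against OD), with RLE factors -0.51 and -0.45, and with DESeq2 on 6 libraries -0.13 (OD); the cause was not tested.

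By the adjusted p alone, with no fold threshold, 43 members were higher with CoCl2, 73 of their genes higher and 69 lower, with 32 opposite and 78 shared pairs. With OD these were 42 members higher and 60 lower, 51 genes higher and 62 lower, with 15 opposite pairs (from 0) and 51 shared, and for CoCl2 against OD 49 and 91 members and 75 and 62 genes. Among the 42 members of at least 1000 counts, 3 were higher and 12 lower with CoCl2, as were 4 and 4 of their genes, with a median of -0.27, 0 opposite and 3 shared pairs. With OD there were 1 and 1, 2 and 3 genes, a median of -0.043 and 1 shared pair, and for CoCl2 against OD 4 and 11, 3 and 7 genes and a median of -0.057. Among the 32 members sharing no exonic base, 1 was higher and 18 lower with CoCl2, 6 and 9 of their genes, with a median of -1.14, 2 opposite and 9 shared pairs. With OD there were 1 and 3, 0 and 1 genes, a median of -0.43 and 0 shared pairs, and for CoCl2 against OD 1 and 12, 5 and 7 genes and a median of -0.84. These subsets hold fewer members by construction. The shares of all rows called higher and lower were 19.9% and 23.4% with CoCl2 and 9.09% and 4.16% with OD. For CoCl2 against OD they were 17.5% and 23.8%.

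Leaving out each replicate in turn gave medians of -0.57 to -0.51 (CoCl2), -0.154 to -0.094 (OD) and -0.50 to -0.43 (CoCl2 against OD), 17 to 22 members higher and 67 to 69 lower with CoCl2, and 4 to 7 shared pairs with OD, the 4 without Control replicate 1. The call of RAMP2-AS1 with OD was lost without Control replicate 2 (-0.98) and without Oxy replicate 2 (-0.90). Deviations of same-numbered replicates had correlations of -0.00492 to 0.0376, with 10 of 18 comparisons highest for the own number. Between different numbers they ran from -0.0467 to 0.025. These values are small and do not settle whether same-numbered replicates were paired. With a replicate block, 18 members were higher and 67 lower with CoCl2 (median -0.55), 9 and 13 with OD (-0.14), and 18 and 56 for CoCl2 against OD, with 4 opposite and 34 shared pairs with CoCl2.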
